A study of Homo sapiens with 2 samples.

Results

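SOX, GATA, KLF and FOX are 4 families of DNA-binding transcription factors, and their genes were compared between 2 human liver cancer lines. Genes were chosen by symbol alone, as SOX, GATA or KLF followed by digits, or FOX followed by a letter and digits. The hepatocyte factors FOXA1, FOXA2 and FOXA3 and the mitotic factor FOXM1 were left out. This gave 83 of the 57820 genes listed: 20 SOX entries, 6 GATA, 17 KLF and 40 FOX. SOX7 is listed under 2 identifiers, so the entries carry 82 symbols. Poly(A)-selected RNA of unmodified cells was sequenced, 1 library for each line. The label of HepG2 is hepatocellular carcinoma. The label of SKHEP1, derived from an adenocarcinoma of the liver, is endothelial cells. Both lines are labelled as wild type and were grown in the same medium with serum.

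Each family is named for its DNA-binding domain or for the sequence it binds. SOX proteins bend DNA through an HMG box, GATA proteins read the GATA sequence through zinc fingers, KLF proteins bind GC-rich and CACCC elements through zinc fingers, and FOX proteins carry a forkhead domain. Members help set cell identity: GATA4 and GATA6 act in early liver and heart, SOX9 marks bile duct and liver progenitor cells, the SOX7, SOX17 and SOX18 group and KLF2 act in endothelium, and FOXF1 acts in mesenchyme, including that of the liver. FOXO proteins are controlled mainly by insulin signalling, through phosphorylation that keeps them out of the nucleus, so their mRNA level does not give their activity.

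The SKHEP1 library held 19940562 counts and the HepG2 library 22477743, after rounding of the estimated counts. Levels are given as counts-per-million (CPM) of the scaled library or, to set genes side by side, as transcripts-per-million (TPM), which is per length. A floor was set at 3 counts, or 0.148 CPM in SKHEP1 and 0.135 CPM in HepG2. The exact 95% upper limit of a count of 0 is higher, at 3.69 counts. Beside a count of 0, "at least" gives the fold over 3 counts in place of the 0, which is not a 95% limit. Without replicates, none of the differences was tested. Intervals are exact at 95% and cover counting error only, as reads copied by PCR carry no molecular identifier and need not stem from separate molecules. Marker genes were read beside both labels. All 8 hepatocyte markers were at least 4-fold higher in HepG2, against 13% of all genes compared. Of the 8, 7 had 0 counts in SKHEP1. All 8 reached the minimum of 10 counts in HepG2 and 1 did so in SKHEP1, so that the minimum nearly fixed the direction. Of 9 endothelial markers matched, KDR, ERG, EMCN and CLDN5 were at 0 counts in SKHEP1 and CDH5 at 1, TEK at 5, VWF at 4 and TIE1 at 10. ROBO4, at 343 counts, gave 10.2 of their summed 11.0 TPM in SKHEP1. VWF, TIE1 and CDH5 had 14, 18 and 5 counts in HepG2, where the sum was 0.91 TPM. SKHEP1 had at least 4-fold more of 5 of the 6 mesenchymal markers compared, against 16.5% of all genes compared. All 6 reached 10 counts in SKHEP1 and 1 did so in HepG2, which again nearly fixed the direction. VIM gave 6798 of the summed 6988 TPM of the mesenchymal markers in SKHEP1, against a sum of 6.40 in HepG2. PDGFRB had 103 counts in SKHEP1 and 183 in HepG2, COL1A2 had 7 and 0, and DCN had 0 in both. Their part in the differences below was not tested.

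Members of the 4 families lay on both sides of the comparison. Of the 83 entries, 47 reached 10 counts in either library, 43 of them in SKHEP1 and 36 in HepG2. A gene that reached the minimum in 1 line alone was likely to lie beyond 4-fold. Among these, 16 (34.0%) were at least 4-fold higher in SKHEP1, against 16.5% of the 15436 genes compared, and 11 (23.4%) were at least 4-fold higher in HepG2, against 13%. Either direction took 29.5% of all genes. Among protein-coding genes alone the shares were 16.2% and 11.8%. These shares are a description, and in bulk RNA fewer expressing cells and less RNA per cell cannot be told apart. The other 20 entries lay within 4-fold, between 1.07-fold and 3.43-fold apart. The median log2 ratio, HepG2 over SKHEP1, was 0.09 for the 47 entries and -0.03 for all genes compared, and members moved in both directions. With TPM values in place of scaled counts that median was -0.23.

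**Figure D1:**
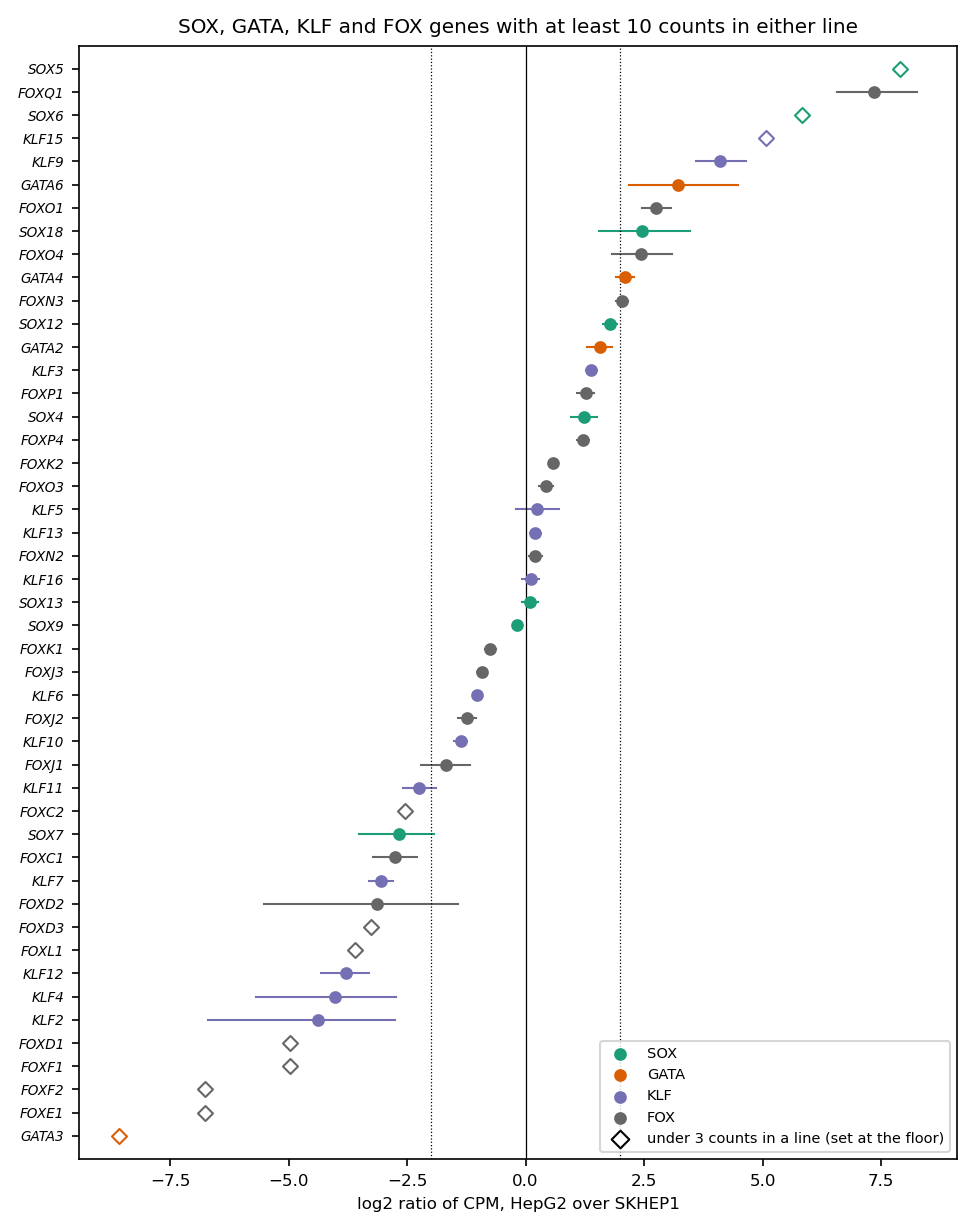
Log2 ratio of CPM, HepG2 over SKHEP1, for the 47 SOX, GATA, KLF and FOX genes with at least 10 counts in either line, coloured by family, with 95% counting intervals as bars. Open diamonds mark genes under 3 counts in a line, set at the floor of 3, and dotted lines mark 4-fold; 16 genes lie beyond the left line and 11 beyond the right line.

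Each family had members higher in either line. Of 8 SOX genes compared, 3 were higher in HepG2, 1 in SKHEP1, and the median log2 ratio was 1.51. Of 4 GATA genes, 2 (50%) were higher in HepG2, 1 (25%) in SKHEP1. Of 13 KLF genes, SKHEP1 had 5 (38.5%) that were higher and HepG2 had 2 (15.4%), and the median was -1.03. Of 22 FOX genes, SKHEP1 had 9 (40.9%) that were higher and HepG2 had 4 (18.2%), and the median was -1.08. All 22 reached 10 counts in SKHEP1 and 14 did so in HepG2, so the count minimum bore on their direction. Of the 9, 7 had 0 counts in HepG2. The summed level of each family differed by less than 2-fold: 107 TPM in SKHEP1 and 148 in HepG2 for SOX, 47.8 and 60.2 for GATA, 207 and 140 for KLF, and 221 and 334 for FOX.

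Among SOX genes, the lines shared SOX9 and differed by SOX5 and SOX6. SOX9, the bile duct and progenitor factor, had 3514 counts in SKHEP1 against 3392 in HepG2, a 1.14-fold difference (1.08 to 1.19). In both lines it was the SOX gene of the highest TPM, at 73.8 and 62.8. It made up 68.9% of the SOX TPM in SKHEP1 and 42.3% in HepG2.

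SOX5, SOX6 and SOX13 form the SoxD group, which have no activation domain of their own and pair through a coiled coil. SOX5 had 0 counts in SKHEP1 against 781 in HepG2, and was at least 237-fold higher in HepG2. SOX6, its partner in cartilage formation, had 0 and 188 counts, at least 57.1-fold higher in HepG2. Both were thus undetected in SKHEP1 at this depth. The third member, SOX13, was at a like level in both lines, with 578 and 677 counts, a ratio of 1.07 whose interval (0.95 to 1.19) includes 1. The exact 95% lower limit of the SOX5 ratio was 192-fold. On the log2 scale of the scaled counts SOX5 lay furthest towards HepG2 among the 47, at 7.89, ahead of the 7.35 of FOXQ1. With the deposited TPM values the order turned, at 6.90 for SOX5 and 7.30 for FOXQ1, and SOX6 was at 4.73.

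The SoxC genes, activators in progenitor cells, were higher in HepG2 by less than 4-fold. SOX12 had 492 counts in SKHEP1 against 1854 in HepG2 (3.43-fold, 3.11 to 3.80). SOX4 had 155 and 401 (2.36-fold, 1.95 to 2.86). SOX11 had 0 counts in both lines. The summed SoxC level was 15.4 TPM in SKHEP1 and 48.3 in HepG2.

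The SoxF genes of endothelial cells were low in both lines and went in opposite directions. SOX7 had 99 counts in SKHEP1 against 17 in HepG2 under its main identifier (6.39-fold, 3.80 to 11.4). Its second entry had 1 and 1, and both entries have fractional counts, so the split of reads between them is uncertain. SOX18 had 12 and 72 (5.46-fold higher in HepG2, 2.94 to 11.1). SOX17 had 0 in both, and the group summed to 3.28 TPM in the line labelled endothelial and 3.72 in HepG2.

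The other SOX genes were not detected or nearly so. SOX1, SOX3, SOX10, SOX11, SOX14, SOX17, SOX21 and SOX30 had 0 counts in both libraries. SOX2, a pluripotency factor, had 0 and 1, SOX8 had 0 and 2, and SOX15 had 8 and 0.

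The leading GATA gene was GATA3 in SKHEP1 and GATA4 in HepG2. GATA3, a factor of T helper 2 cells and of breast and urothelial epithelium, had 1043 counts in SKHEP1 against 1 in HepG2. The ratio over that 1 count was 1145 with a wide interval of 205.1 to 45273. With the HepG2 count set to the floor of 3, as in the plots and medians, the log2 ratio was -8.58, the lowest of the 47. It made up 67.0% of the GATA TPM in SKHEP1, at 32.0 TPM, and 0.05% in HepG2. Of 8 blood markers listed, CD3E, ITGAM, HBA1 and HBB had 0 counts in SKHEP1, PTPRC had 5 and CD68 had 2576. CD14 had 40 counts in SKHEP1 and 58 in HepG2, and CD79A had 2 and 13. The 8 markers summed to 149 TPM in SKHEP1 and 68.5 in HepG2, of which CD68 alone gave 146 and 64.0. Their part in the GATA3 difference was not tested.

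GATA4 was expressed in both lines, with 289 counts in SKHEP1 against 1357 in HepG2 (4.28-fold, 3.76 to 4.87). Its share of the GATA TPM was 22.3% in SKHEP1 and 72.5% in HepG2. GATA6, a close relative that acts with it in endoderm, had 8 and 82 counts (9.34-fold, 4.52 to 22.3). Both thus lay in the same direction, and both were at or above the count minimum in HepG2. GATA2, a factor of blood and endothelial cells, had 157 and 510 counts (2.96-fold higher in HepG2, 2.47 to 3.56). It was therefore lower in the line labelled endothelial. GATA5 had 5 and 0 counts, and the erythroid GATA1 had 0 in both.

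**Figure D2:**
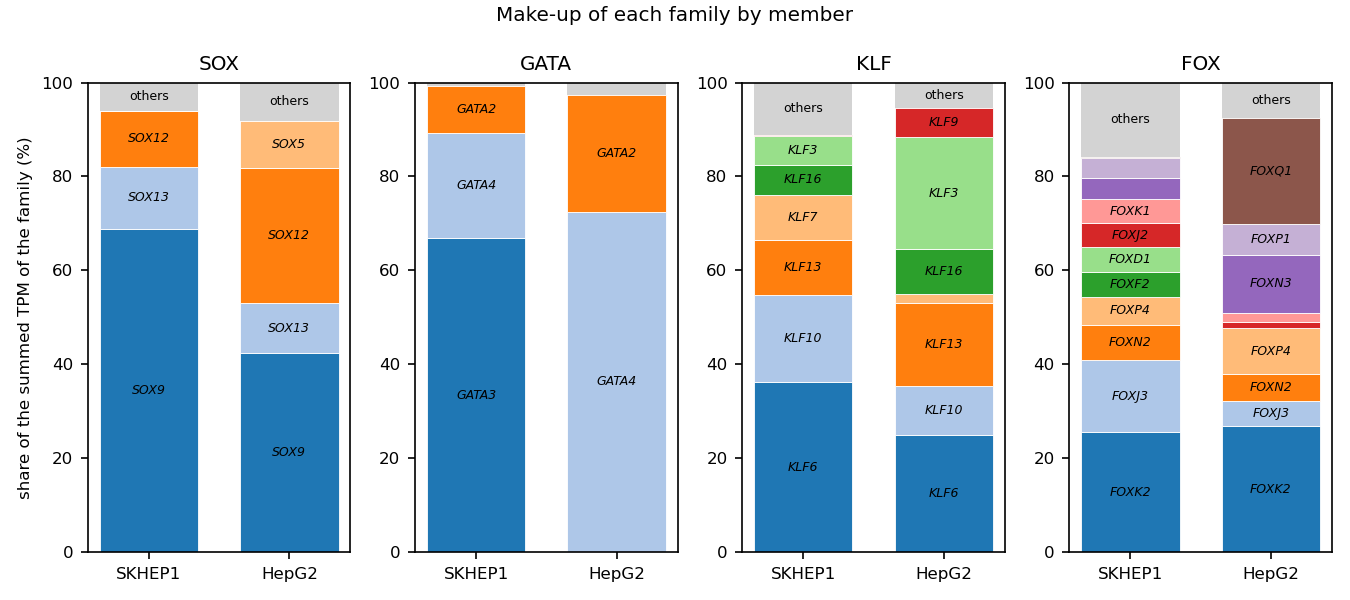
Share of the summed TPM of each family taken by each member, in percent, with 1 bar per line; members with at least 5% in a line are shown separately and the rest are grey. SOX9 and KLF6 lead in both lines, whereas GATA3 takes 67.0% of the GATA TPM in SKHEP1 and GATA4 takes 72.5% in HepG2.

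The KLF genes of the activator group were mostly higher in SKHEP1. This group (KLF1, KLF2, KLF4, KLF5, KLF6 and KLF7) summed to 103 TPM in SKHEP1 and 40.2 in HepG2. KLF6, first described as a gene induced in liver stellate cells by injury, had the highest TPM of the family in both lines, at 75.0 and 35.2. Its 3863 and 2084 counts were 2.04-fold apart (1.93 to 2.15). KLF7, which is known for its role in neurons, had 1122 and 149 counts (8.27-fold, 6.96 to 9.88).

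KLF2 and KLF4, which blood flow induces in endothelium, were low but higher in SKHEP1. KLF2 had 57 counts in SKHEP1 against 3 in HepG2, a 20.9-fold ratio (6.79 to 104.1). KLF4, also a reprogramming factor, had 74 and 5 (16.2-fold, 6.66 to 51.5). Their levels in SKHEP1 were 3.11 and 2.39 TPM, far below the 75.0 TPM of KLF6. KLF5, an epithelial factor of the gut, had 73 and 95 counts, a ratio of 1.18 whose interval (0.86 to 1.63) includes 1. The erythroid KLF1 had 1 and 1.

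Repressors of the family that recruit Sin3 (KLF9, KLF10, KLF11, KLF13, KLF14 and KLF16) were split. KLF9, which glucocorticoid and thyroid hormone induce, had 33 counts in SKHEP1 against 619 in HepG2 (17.1-fold, 12.0 to 25.0). The TGF-beta inducible factors went the other way. KLF11 had 370 and 86 (4.72-fold higher in SKHEP1, 3.73 to 6.05), and KLF10 had 1424 and 607 (2.58-fold, 2.34 to 2.84).

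KLF13 and KLF16 were nearly level between the lines. KLF13 had 1146 and 1454 counts (1.16-fold, 1.069 to 1.2497). KLF16 had 447 and 529, a ratio of 1.08 whose interval (0.95 to 1.23) includes 1. KLF14 was at 4 and 1 counts.

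Of the repressors that bind CtBP, KLF12 and KLF3 also parted. KLF12 had 468 counts in SKHEP1 against 37 in HepG2 (13.9-fold, 9.93 to 19.97). KLF3 had 768 and 2205 (2.62-fold higher in HepG2, 2.41 to 2.84), and its share of the KLF TPM was 6.12% in SKHEP1 and 23.8% in HepG2. KLF8, the third of this group, had 2 and 0. KLF12 and KLF5 are neighbours on chromosome 13 with no protein-coding gene between them in RefSeq, yet KLF12 was 13.9-fold apart and KLF5 1.18-fold.

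KLF15, a regulator of gluconeogenesis and amino acid breakdown in liver, was seen in HepG2 alone. It had 0 counts in SKHEP1 against 110 in HepG2, at least 33.4-fold higher. From the deposited TPM values the lower bound was smaller, a log2 ratio of 4.21. KLF17 had 2 and 0 counts.

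FOX genes are described by subfamily, in sets chosen after the values were seen. Every FOXC, FOXD, FOXE, FOXF and FOXL gene that reached 10 counts, 9 of 9, was at least 4-fold higher in SKHEP1, and 7 of them had 0 counts in HepG2. All 9 reached 10 counts in SKHEP1 and 1 of them did so in HepG2, so that the minimum nearly fixed the direction and the count is a description alone. The 12 listed genes of these subfamilies summed to 43.8 TPM in SKHEP1 and 1.15 in HepG2. Of 12 FOXJ, FOXK, FOXN, FOXO and FOXP genes that reached 10 counts, 9 (75%) stayed within 4-fold and 3 were higher in HepG2. Of all genes compared, 70.5% lay within 4-fold. All 12 reached 10 counts in both lines, whereas the 70.5% includes genes that did so in 1 line alone. These shares thus come from unlike sets.

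FOXF2, FOXE1 and FOXC1 led the first set by count. FOXF2, a mesenchymal factor of gut and palate, had 295 counts in SKHEP1 against 0 in HepG2, at least 108-fold higher. FOXE1, a thyroid factor, had 298 and 0, at least 109-fold. FOXC1, which acts in mesenchyme, eye and vessel formation, had 287 and 47 (6.70-fold, 4.91 to 9.33) and was the one gene of the 9 with at least 10 counts in HepG2.

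Lower in count were FOXF1, FOXD1, FOXL1, FOXD3, FOXD2 and FOXC2. By TPM in SKHEP1, however, FOXD1 at 11.5 was above FOXE1 at 7.19 and FOXC1 at 6.93. That order depends on the short length estimated for FOXD1 in SKHEP1, 777 bases against 1338 in the HepG2 values. FOXF1, the relative of FOXF2 in lung, gut and liver mesenchyme, had 86 and 0 counts, at least 31.5-fold. FOXD1, a factor of kidney stroma, had 85 and 0, at least 31.1-fold, with a count that is not whole and is uncertain where reads are shared with a near copy. FOXL1, of gut mesenchyme, had 33 and 0, and FOXD3, of neural crest, 26 and 0. FOXC2, of lymphatic vessels and mesenchyme, had 16 and 0, and FOXD2 24 and 3 (8.78-fold, 2.67 to 45.6). These 4 rest on few counts, and with a minimum of 50 counts they were not compared, which left 5 FOX genes higher in SKHEP1.

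FOXQ1 lay furthest towards HepG2 among the FOX genes. This factor, linked to epithelial plasticity in carcinomas, had 13 counts in SKHEP1 against 2323 in HepG2 (163-fold, 94.99 to 306.1). At 75.7 TPM it was second only to FOXK2 among the FOX genes of HepG2 and made up 22.7% of their TPM. In SKHEP1 it was at 0.48 TPM. FOXQ1 lies beside FOXF2 and FOXC1 on chromosome 6 in RefSeq, with 1 other protein-coding gene between FOXQ1 and FOXF2 and none between FOXF2 and FOXC1. These 3 neighbours thus differed in opposite directions, FOXQ1 towards HepG2 and the other two towards SKHEP1.

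The 250 bases before the RefSeq start (GRCh38.p14) of these neighbours are shown because they sit in 1 gene cluster and parted between the lines. SOX5 is added as one of the genes absent from the SKHEP1 counts and high in HepG2. All 4 are on the strand of the gene, the plus strand for the FOX genes and the minus strand for SOX5. Capitals mark a match, on either strand, to the letters AGATAA for GATA factors, CCACCC for KLF factors, GTAAACA for forkhead factors or AACAAT for SOX factors. The patterns of the forkhead and SOX factors can overlap.
FOXQ1 (chr6:1311848-1312097): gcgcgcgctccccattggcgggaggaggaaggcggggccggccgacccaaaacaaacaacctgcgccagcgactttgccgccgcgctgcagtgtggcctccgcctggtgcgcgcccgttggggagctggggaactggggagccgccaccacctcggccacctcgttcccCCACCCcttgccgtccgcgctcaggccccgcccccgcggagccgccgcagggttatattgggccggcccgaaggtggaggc
FOXF2 (chr6:1389326-1389575): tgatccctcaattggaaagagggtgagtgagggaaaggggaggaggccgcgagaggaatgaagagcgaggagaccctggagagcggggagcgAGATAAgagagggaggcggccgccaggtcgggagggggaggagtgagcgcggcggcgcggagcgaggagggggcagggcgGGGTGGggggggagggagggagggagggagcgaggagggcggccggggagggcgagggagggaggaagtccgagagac
FOXC1 (chr6:1609665-1609914): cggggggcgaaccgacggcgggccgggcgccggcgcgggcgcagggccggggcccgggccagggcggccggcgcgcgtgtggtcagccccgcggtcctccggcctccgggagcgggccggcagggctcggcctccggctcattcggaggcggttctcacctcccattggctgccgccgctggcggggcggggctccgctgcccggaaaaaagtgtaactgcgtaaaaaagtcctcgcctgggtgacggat
SOX5 (chr12:24562492-24562741): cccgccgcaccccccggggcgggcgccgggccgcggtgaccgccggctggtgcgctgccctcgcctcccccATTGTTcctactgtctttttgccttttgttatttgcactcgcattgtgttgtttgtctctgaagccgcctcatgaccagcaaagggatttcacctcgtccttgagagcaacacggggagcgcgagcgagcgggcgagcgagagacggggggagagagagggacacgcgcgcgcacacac

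FOXQ1 held 1 KLF pattern, FOXF2 1 GATA and 1 KLF pattern, FOXC1 none of the 4, and SOX5 1 SOX pattern. The windows of the 3 FOX genes were rich in CpG, with 29, 20 and 37 CpG dinucleotides, against a median of 11 in all 35116 windows of the table. SOX5 held 27. Windows were present for 60 of the 82 symbols, 93 windows in all, since a gene may have several starts. The KLF pattern was in 32.3% of these and in 31.3% of all windows, the GATA pattern in 6.45% and 9.17%, the forkhead pattern in 3.23% and 2.98%, and the SOX pattern in 12.9% and 8.98%. The median CpG number was 17 in the 93 windows, 28 in the 27 windows of genes within 4-fold, 20 and 17 in those of genes higher in SKHEP1 and in HepG2, and 12 in the 29 windows of genes under 10 counts.

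**Figure D3:**
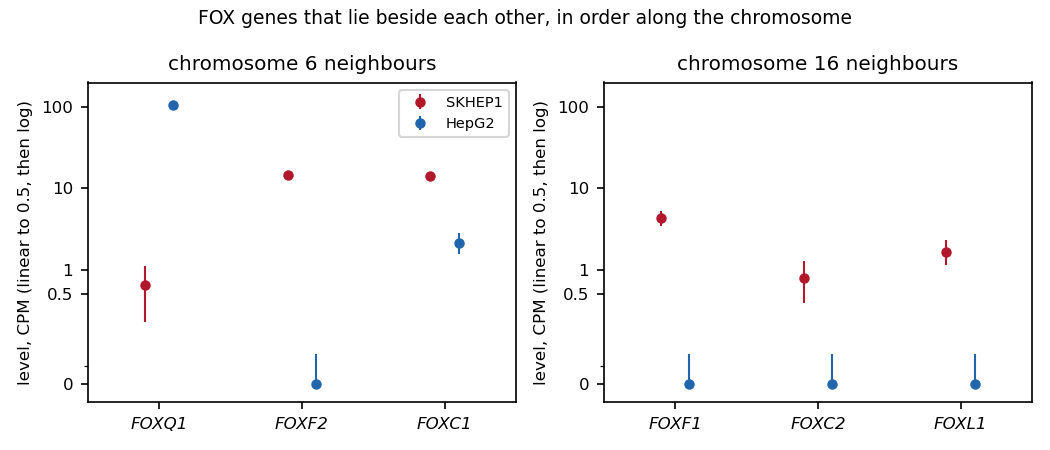
Level in CPM, linear to 0.5 and logarithmic above, of 2 sets of neighbouring FOX genes in order along chromosomes 6 and 16, with exact 95% Poisson intervals. On chromosome 6 FOXQ1 is at 0.64 CPM in SKHEP1 and 104.7 in HepG2, while FOXF2 and FOXC1 are higher in SKHEP1; on chromosome 16 the HepG2 library has 0 counts for FOXF1, FOXC2 and FOXL1.

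A second cluster moved in 1 direction. FOXF1, FOXC2 and FOXL1 lie together on chromosome 16, with 1 protein-coding gene between the first and second of them and none between FOXC2 and FOXL1. Their counts in SKHEP1 were 86, 16 and 33, and all were 0 in HepG2. FENDRR, the long noncoding RNA next to FOXF1, had 10 counts in SKHEP1 against 0 in HepG2. On chromosome 1, FOXD2 and FOXE3 are neighbours, with 24 and 2 counts in SKHEP1 and 3 and 0 in HepG2. FOXD2-AS1, listed beside FOXD2, was at 30 and 79 counts and so was 2.40-fold higher in HepG2, while FOXD2 was higher in SKHEP1. The strand setting of the counting was not given in the sources used here, and reads of such pairs may not be told apart.

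Genes of the FOXO subfamily, which carry insulin and stress signals, were higher in HepG2 or level. FOXO1, the main FOXO of hepatic glucose production, had 101 counts in SKHEP1 against 751 in HepG2 (6.77-fold, 5.50 to 8.42). FOXO4 had 26 and 154 (5.39-fold, 3.54 to 8.52). FOXO3 differed less, with 627 and 932 (1.35-fold, 1.22 to 1.50), and its count too is not whole and is uncertain where a near copy shares reads. FOXO6 had 0 in both. The subfamily summed to 9.56 TPM in SKHEP1 and 22.5 in HepG2.

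FOXN3, a checkpoint repressor, was the other FOX gene past the limit in HepG2. It had 652 counts in SKHEP1 against 2939 in HepG2 (4.11-fold, 3.77 to 4.48), and with total counts in place of the scaled library it fell just short, at a log2 ratio of 1.9996. FOXN2 was close to level, with 828 and 1050 (1.16-fold, 1.05 to 1.27). FOXP1 and FOXP4 are transcriptional repressors that act in lung and gut development. They had 364 and 964 (2.41-fold, 2.14 to 2.73) and 650 and 1649 counts (2.31-fold, 2.11 to 2.53), both higher in HepG2.

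FOXJ and FOXK genes were broadly expressed in both lines. FOXK2, which with FOXK1 binds chromatin regulators and tunes glycolysis, had the highest TPM of the family in both, at 56.4 in SKHEP1 and 90.2 in HepG2. Its 2310 and 3782 counts were 1.49-fold apart (1.42 to 1.57). FOXK1 had 1520 and 996 (1.68-fold higher in SKHEP1, 1.55 to 1.82), so the pair went in opposite directions by less than 2-fold.

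All 3 FOXJ genes were higher in SKHEP1 by less than 4-fold. FOXJ3 had 2153 and 1253 counts (1.89-fold, 1.76 to 2.02), and at 34.1 TPM was second in the family in SKHEP1. FOXJ2 had 774 and 361 (2.35-fold, 2.07 to 2.67). FOXJ1, the master gene of motile cilia, had 129 and 44 (3.22-fold, 2.27 to 4.64).

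The remaining FOX genes were not compared, since neither library reached 10 counts. FOXB1, FOXB2, FOXI1, FOXI2, FOXI3, FOXN1, FOXO6, FOXR1 and FOXR2 had 0 counts in both. FOXD4, which has near-identical copies, had 9 and 3, FOXN4 0 and 5, FOXP3, the factor of regulatory T cells, 4 and 2, FOXS1 3 and 0, FOXE3 and FOXP2 2 and 0 each, FOXL2 1 and 0, and FOXH1 0 and 1.

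**Figure D4:**
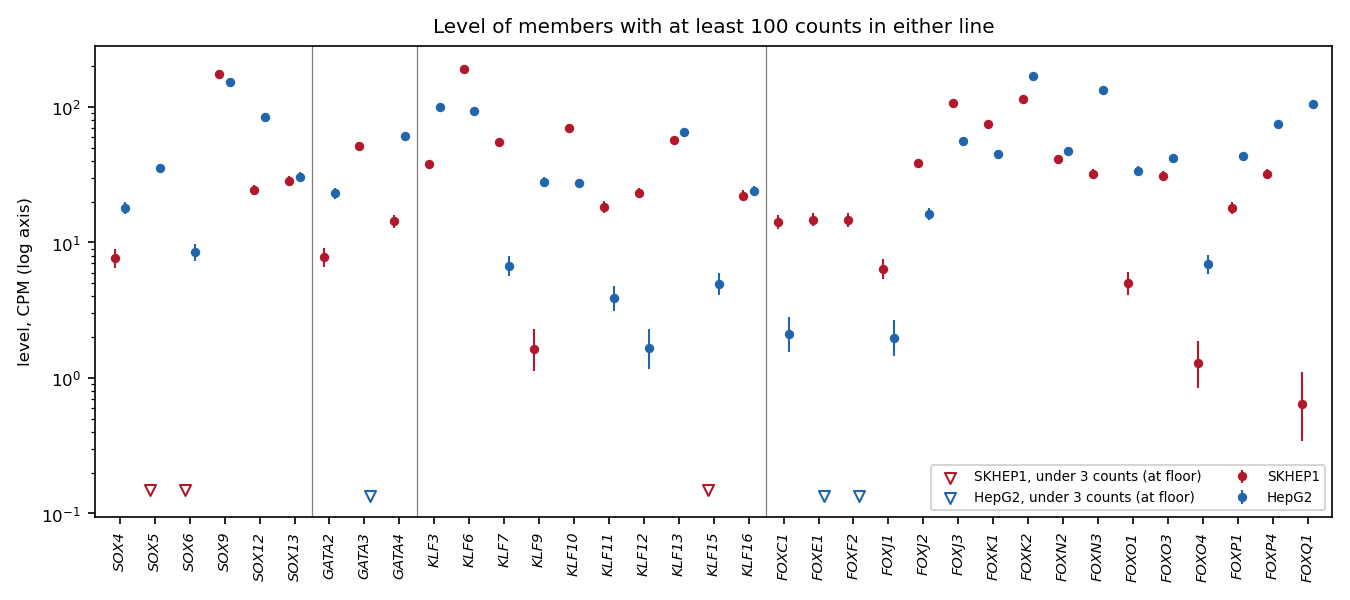
Level in CPM (log axis) of the 35 members with at least 100 counts in either line, SKHEP1 in red and HepG2 in blue, with exact 95% Poisson intervals; open triangles mark a library under 3 counts, set at the floor. SOX5, SOX6 and KLF15 are at the floor in SKHEP1, and GATA3, FOXE1 and FOXF2 in HepG2.

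Gene length in the tables is averaged over isoforms by their estimated share, so it moves when isoforms shift. Among the 22 members with at least 100 counts in both lines, the median ratio of the longer to the shorter length was 1.01 and the largest was 1.10, for FOXK2, at 3413 bases in SKHEP1 and 3096 in HepG2. KLF5, named after its values were seen and below that count, was at 2426 bases in SKHEP1 and 3562 in HepG2, from 73 and 95 counts. No error can be given for a length.

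Relatives and partners of the families came near the background, in which 70.5% of genes lay within 4-fold. Of 6 Sp factors compared, the closest kin of KLF, 4 (66.7%) lay within 4-fold. SP5, a Wnt target, had 5 counts in SKHEP1 against 1841 in HepG2 (335-fold), SP6 had 104 and 4 (28.6-fold higher in SKHEP1), and SP1 differed 1.66-fold. Of 16 other HMG box genes, relatives of SOX, 10 (62.5%) lay within 4-fold and 3 were higher in each line. TOX3 had 0 and 664 counts, TOX2 234 and 0, and the Wnt factor TCF7 19 and 943. Of 12 GATA partners and GATA-type zinc finger genes, 8 (66.7%) lay within 4-fold, 3 were higher in SKHEP1, 1 in HepG2. TRPS1, a GATA-type repressor, had 298 and 0 counts. ZFPM1, the FOG1 cofactor of GATA proteins, had 10 and 125 (11.4-fold), whereas GATAD2B, of the NuRD complex, differed 1.78-fold.

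Genes around FOXO lay on both sides. Of 25 upstream genes of the insulin and AKT pathway, 17 (68%) stayed within 4-fold, HepG2 had 5 (20%) that were higher and SKHEP1 3 (12%), shares near those of all genes (70.5%, 13% and 16.5%). IRS2, an insulin receptor substrate, had 782 counts in SKHEP1 against 0 in HepG2, and the kinase SGK2 had 2 and 777. Of 24 FOXO targets compared, 13 (54.2%) stayed within 4-fold, 7 (29.2%) were higher in HepG2, 4 (16.7%) in SKHEP1, and the median log2 ratio was 0.34, against -0.03 for all genes. KLF15, itself listed there, and IRS2 were the furthest apart, and PINK1, a mitochondrial kinase, was 8.52-fold higher in SKHEP1. FOXO1 and FOXO4 were thus higher in HepG2 while the listed targets had no single direction.

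Counts for listed targets of the other factors are set beside the 16.5% of all genes higher in SKHEP1 and 13% higher in HepG2, with no test. Of 13 genes regulated by KLF2 or KLF4 in endothelium, 9 (69.2%) were higher in SKHEP1, 2 (15.4%) in HepG2, and the median log2 ratio was -5.84. All 13 reached 10 counts in SKHEP1 and 8 in HepG2. CAV1, ADAMTS1 and PLAT, which encode a caveolar protein, a protease and a plasminogen activator, had 43159, 8819 and 30647 counts in SKHEP1 and 1, 4 and 26 in HepG2. ASS1, of the urea cycle, went the other way, with 60 and 1335. Of these 13 genes many are expressed in cells other than endothelium, and NOS3, the endothelial nitric oxide synthase, was at 49 and 132 counts. Of 14 genes linked to GATA4 and GATA6, 6 (42.9%) were higher in each line. AFP, VIL1 and HNF4A, hepatic and epithelial genes, were at 11, 0 and 0 counts in SKHEP1 and 133342, 8705 and 8689 in HepG2, and the basement membrane collagen COL4A2 at 3996 and 2. Of 11 genes associated with SOX4, SOX9 or SOX11, 4 (36.4%) were higher in HepG2, 2 (18.2%) in SKHEP1. The cartilage collagen COL2A1, a target of SOX9 with SOX5 and SOX6, had 0 counts in SKHEP1 against 255 in HepG2. Other cartilage genes of the list were mixed. MATN3 (151 and 2165 counts) and COL9A2 (72 and 355) were higher in HepG2, COL11A2 (36 and 8) was higher in SKHEP1, and ACAN and COL9A1 had 0 in both. PROM1 had 0 and 388, and SEMA3C 5943 and 12.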

How the data were processed

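The lines were assigned by their labels. Stranded mRNA libraries were made from column-purified RNA, per the labels' protocols. Cutadapt, STAR, RSEM, DESeq2 and hg19 are named in the submitters' processing notes, without versions, and with annotation release and strand setting not given in the sources used here. The deposited gene tables have the RSEM format and give, per the file headers, expected counts (estimated reads of a gene), TPM, FPKM, length and effective length.

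Expected counts were rounded and scaled to CPM of the TMM effective library size (edgeR 4.0.16, R 4.3.3). Genes with at least 10 expected counts in either library were compared, 4-fold or more was called higher, and counts under 3 were set to 3 in log2 ratios and calls, while a printed fold over 1 or 2 counts uses the count itself. A ratio against a library at 0 is the fold over the floor of 3 counts, and not a 95% limit. Level intervals are exact Poisson and ratio intervals exact conditional Clopper-Pearson, at 95%. The members and lists were chosen with earlier results of these data known. Genes of the families with at least 100 counts in either library are given in full, and per list up to 3 genes with the largest absolute log2 ratio among those of 100 counts or more, plus 1 that went furthest the other way. Names outside this rule, such as the markers, NOS3 and the small FOX and SOX counts, are there for their role. Some genes that fall under these rules are not reported here.

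Gene types came from GENCODE release 29 by identifier, and promoters and gene order from RefSeq GRCh38.p14, so no coordinates of the files' build are given. Of the 83 entries, 5 have counts that are not whole within 0.005. The calculation was tested on simulated data. Alternatives were total counts, DESeq2 1.42.0 size factors, TPM, FPKM, thinning of the deeper library, a prior count of 2, unrounded counts, count minimums (50, 1), fold limits (2, 8), the nearer interval bound, and the mean. Scripts ran on Python 3.11.15 (numpy 2.4.6, scipy 1.17.1, pandas 2.3.3), and figures on matplotlib 3.10.9.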

Additional observations from a re-analysis of the deposited data

How the results depend on the processing

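The number of family genes at least 4-fold higher in SKHEP1 was 16 and lay between 12 and 20 under the 12 alternatives, and the number higher in HepG2 was 11, with 10 under total counts and 11 under the other scalings, units and count minimums. That number was 17 with a limit of 2-fold, 6 with a limit of 8-fold and 7 with the nearer 95% bound of each ratio. The median log2 ratio of the families was 0.09. It was -0.23 from TPM, -0.22 from FPKM, 0.21 with a minimum of 50 counts and -0.13 with a minimum of 1 count, and the mean was -0.41, so its sign changed with these settings. Of 315 recomputed log2 ratios of the 35 genes with 100 or more counts, 305 stayed within their counting interval or, for a gene at 0, above its lower limit, 10 moved and 0 changed sign. FOXN3 was the 1 gene whose side of 4-fold changed with the scaling. For SOX5, SOX6 and KLF15 the TPM bounds were smaller. The TPM floor is 3 counts over the effective length in that library, which was shorter in SKHEP1, at 0 counts, than in HepG2. It was 1891 against 3621 bases for SOX5, 2587 against 5391 for SOX6 and 1367 against 2378 for KLF15. No paired analysis was possible because each line has 1 library. Genes under about 10 counts cannot be ranked at this depth.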
